A study of Mus musculus with 9 samples.

Results

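The primary cilium is a single antenna-like projection that grows from the mother centriole. Its genes were followed here through 44 members: subunits of the IFT-B and IFT-A trains, of the dynein-2 motor and of the BBSome, the ciliary GTPases Arl3, Arl6 and Arl13b, and proteins of the transition zone and the basal body. Members were chosen by gene name, each on a probe set that carried that gene symbol alone in the platform annotation. Of the 44, 42 were measured, among 19938 genes tested. Arl6 and Arl13b were not analysed here. The list of members was drawn up with earlier HCC and control results of these data known, so counts and medians over it are a description and not independent evidence. Where a member had 2 such probe sets (Tctn1 and Cep164), the one with the higher mean log2 level over all arrays was used.

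The tumours were 5 hepatocellular carcinomas (HCC) of bitransgenic AFP-Cre/Rosa26-lsl-NICD mice. In them, the alpha-fetoprotein promoter drives Cre, which removes a stop cassette and so turns on the Notch intracellular domain (NICD). The reference tissue was 4 healthy livers of monotransgenic Rosa26-lsl-NICD mice, which carry the silent NICD allele and no Cre. All mice were 6 to 12 months old on a hybrid 129 x C57BL/6 background, and total RNA of each sample was hybridised to 1 Affymetrix Mouse Gene 1.0 ST array. The alpha-fetoprotein promoter is active in liver progenitors of the fetus, so descendants of those cells can carry the active allele. The labels give no sex and do not tie each array to an animal of its own, so p-values rest on the spread among the arrays alone.

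Trains of intraflagellar transport (IFT) carry cargo along the axoneme: IFT-B trains move outward with kinesin-2, and IFT-A with dynein-2 serves the return. The BBSome rides on these trains and removes membrane proteins, while the transition zone at the ciliary base gates what enters. In adult liver the primary cilium is a feature of bile duct cells, and hepatocytes are known to lack it. Defects of many of these genes cause cystic and fibrotic disease of bile ducts and kidney.

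Values are log2 intensity as mean ± SD over 5 HCC and 4 control arrays. A change is HCC minus control liver in limma, and it was called at an adjusted p below 0.05 over all 19938 genes. Array medians lay between 91.5 and 101 linear units. Both groups held strong hepatocyte signal, as Alb, the gene of serum albumin, measured 13.30 ± 0.23 in HCC and 13.55 ± 0.08 in control liver. HCC array 5 correlated best over all genes with control array 4 (r = 0.9871) and less on average with the other HCC arrays (r = 0.9651). The level of Xist, the RNA that coats an inactive X chromosome, was 4.83 to 5.10 on control array 4 and HCC arrays 3 to 5 and 10.68 to 11.76 on the others. Results are therefore also given without single arrays and with the Xist level as a covariate.

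In HCC, 4 cilium genes rose and none fell. They were Dync2li1 of the dynein-2 motor, Ift81 of the IFT-B train, and Cep290 and Rpgrip1l of the transition zone. These 4 of 42 make 9.52% of the members, against 0.858% of all genes called higher and 0.16% called lower. In bulk tissue, more cells of a type and more RNA per cell cannot be told apart. Of the members, 35 (83.3%) had a positive change, against 42.5% of all genes, and 7 a negative one. Their median change was 0.37, against -0.03 over all genes. At an unadjusted p below 0.05, 24 members were higher in limma, where all genes gave 10.5%, and none was lower, where all genes gave 9.85%. Every HCC array lay above every control array for 16 members (38.1%, against 5.63% of all genes), and none lay wholly below (against 3.86%). In a complex or list of few genes, 0 calls lies near the 0.858% and 0.16% of all genes.

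The number of calls depended on single arrays. Without HCC array 5, 10 members were called, the additional ones being B9d1, Bbs2, Ift122, Ift80, Ift88 and Wdr35. Calls over all genes then went from 171 higher and 32 lower to 631 and 556. Without HCC arrays 1, 2, 3 and 4 the count of members was 4, 2, 2 and 1, and without control array 4 it was 1. Over all genes, 115, 66, 49, 34 and 31 were called higher in these 5 omissions. Without control array 1, 2 or 3 limma called no member, and only 15, 13 and 10 genes in all. The median change of the members moved less, between 0.34 and 0.43 over these 9 omissions.

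**Figure D1:**
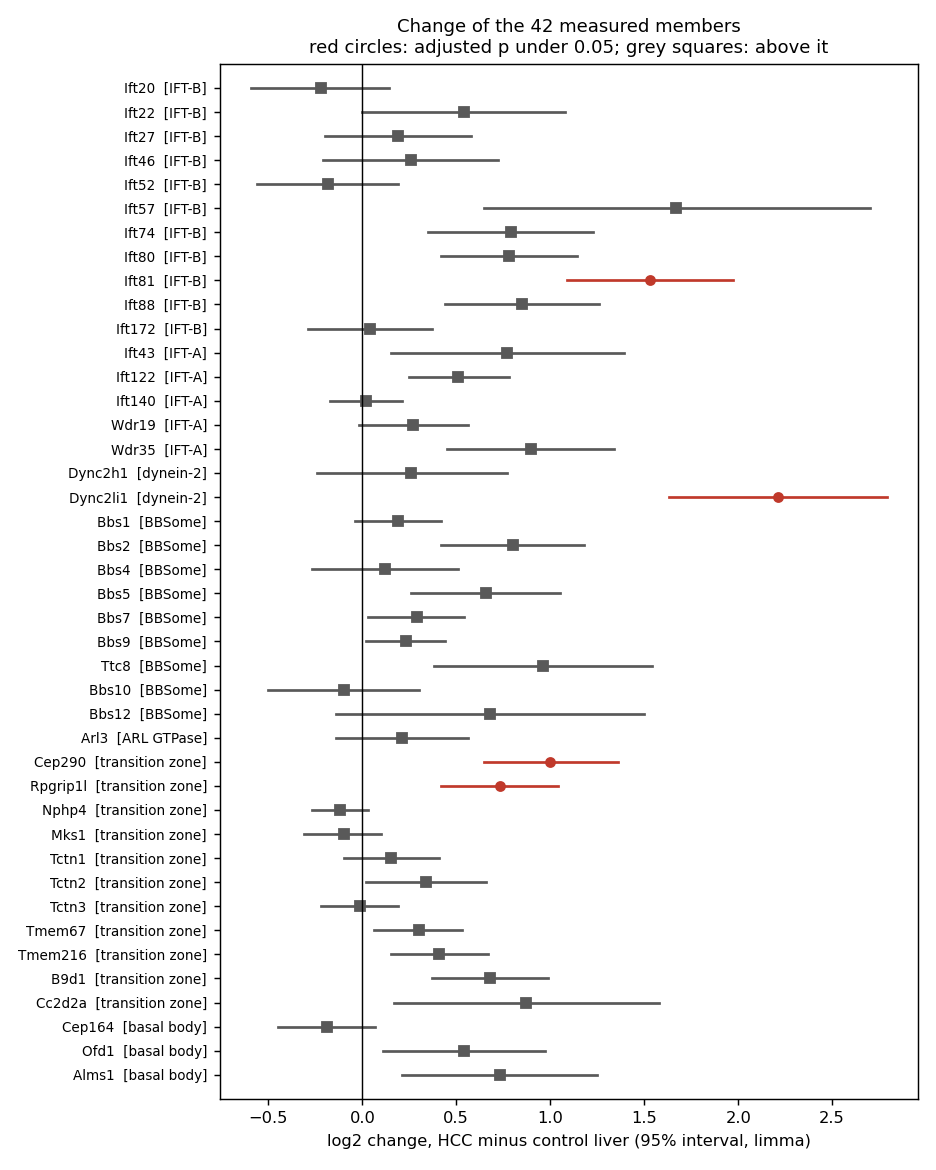
Change of each of the 42 measured members, grouped by complex, as log2 HCC minus control liver on the horizontal axis, with limma's 95% interval. The 4 members past the threshold (red circles) lie between 0.73 and 2.21, and the 38 others (grey squares) lie between -0.22 and 1.67.

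Promoters of the members were searched for the X-box, the motif of paired hexamers that RFX factors bind in ciliary genes, because many members shared the direction of their change. RefSeq promoters of the GRCm38.p6 build, from 250 bases before to 50 after a gene start, were matched for 37 of the 42 members (40 promoters). Ift80, Ift81, Ift122, Dync2li1 and Tmem67 had no entry. The X-box, with 0 to 3 bases between its hexamers and on both strands, was in 5 of 40 promoters (12.5%), against 1.53% of all 32851 promoters. A single RFX hexamer, GTTGCC or GTTACC on either strand, was in 20 of 40 (50%), against 18.6% of all, and all the X-box matches shown contain one. Promoters of the members were richer in G and C, at 58.5%, than all promoters, at 53.8%, or those of protein-coding genes, at 56.2%. Of the promoters of protein-coding genes, 1.5% held the X-box and 18.3% a single hexamer.

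The X-box matches are shown with up to 8 flanking bases, to let the hexamer pairs be compared. They are written 5′ to 3′ on the strand of the gene, with the match in capitals.
Ift57, chr16:49699199-49699228, plus strand: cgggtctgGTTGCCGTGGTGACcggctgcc
Ift57, chr16:49699226-49699254, plus strand: gccctgcgGTTGCCTGGTAACggtgggga
Bbs1, chr19:4906605-4906634, minus strand: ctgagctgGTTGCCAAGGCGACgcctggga
Tctn1, chr5:122264411-122264432, minus strand: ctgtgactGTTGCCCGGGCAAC
Tctn2, chr5:124598679-124598708, plus strand: gattggagGTTACCATGGCTACtggtcctc
Tctn3, chr19:40612351-40612379, minus strand: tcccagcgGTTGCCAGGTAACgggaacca

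Ift57 held 2 matches, starting 87 and 60 bases before its gene start. The 3 tectonic genes Tctn1, Tctn2 and Tctn3 each held 1 match and had changes of 0.15, 0.34 and -0.01. Members with an X-box match had a median change of 0.19 (5 genes) and those without one 0.35 (32 genes). Members with a single hexamer had a median of 0.23 (20 genes) and those without 0.54 (17 genes). These medians describe sequence matches in a short window and not binding. They leave out the 5 members without a promoter entry, among them the called Dync2li1 and Ift81, with changes of 2.21 and 1.53. For all 5 of these members, every HCC array lay above every control array.

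Of the called members with a promoter entry, neither Cep290 nor Rpgrip1l held an X-box match in this window, and Rpgrip1l held 1 hexamer. Its promoter is printed as the example of a called member with such a match (chr8:91313173-91313472, minus strand), with the hexamer in capitals as the reverse complement of GTTACC.
Rpgrip1l: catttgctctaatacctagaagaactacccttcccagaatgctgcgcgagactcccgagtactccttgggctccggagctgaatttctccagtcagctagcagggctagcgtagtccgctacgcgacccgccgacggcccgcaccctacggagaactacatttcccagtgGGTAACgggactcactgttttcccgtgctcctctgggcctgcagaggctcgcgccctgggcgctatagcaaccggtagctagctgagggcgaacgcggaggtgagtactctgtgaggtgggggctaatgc

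Dynein-2 is the motor of retrograde transport. Dync2li1, its light intermediate chain, had the largest change of all members. It measured 8.42, 8.18, 7.44, 7.98 and 7.13 on HCC arrays 1 to 5, against 5.77, 5.89, 5.38 and 5.44 on control arrays 1 to 4. The groups were far apart, with the lowest tumour more than 1 log2 unit above the highest control. The means were 7.83 ± 0.53 in HCC and 5.62 ± 0.25 in control liver (4.63-fold, log2 change 2.21, SE 0.26, adjusted p = 0.015 in limma). Dync2li1 passed under 14 of 17 alternatives and lost the call without control array 1, 2 or 3 (adjusted p 0.0717, 0.0572 and 0.0675), where its change was 2.13 to 2.30.

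The heavy chain Dync2h1, which carries the motor activity, gave a different picture. It measured 6.87, 5.93, 7.12, 6.55 and 6.82 on HCC arrays 1 to 5 and 6.70, 6.39, 6.19 and 6.29 on control arrays 1 to 4, so the groups overlapped. The change was 0.26 (95% interval -0.24 to 0.77, adjusted p = 0.53), and a difference between the changes of both chains was not tested.

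Among 11 IFT-B subunits, Ift81 rose (9.09%, against 0.858% of all genes called higher), none fell and 10 did not pass. At an unadjusted p below 0.05 in limma, 6 were higher and none lower, against 10.5% and 9.85% of all genes. Ift81, which pairs with Ift74 to carry tubulin into the cilium, measured 8.67, 8.41, 8.18, 8.34 and 7.60 on HCC arrays 1 to 5, against 6.60, 6.88, 6.82 and 6.53 on control arrays 1 to 4. All 5 tumours lay above all controls, with HCC array 5 nearest to them. The means were 8.24 ± 0.40 in HCC and 6.71 ± 0.17 in control liver (2.89-fold, log2 change 1.53, SE 0.19, adjusted p = 0.0179). The call was lost without control array 1, 2, 3 or 4 (adjusted p 0.0856, 0.0604, 0.0781 and 0.0563) and without HCC array 4 (0.0541), while the change stayed between 1.43 and 1.69 in all 9 omissions.

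With Ift81, 4 of 11 IFT-B subunits (36.4%) had every HCC array above every control array, against 5.63% of all genes. The further 3 did not pass the threshold. Ift88, the subunit mutated in the polycystic orpk mouse, measured 8.25 to 8.99 in HCC and 7.52 to 7.99 in control liver (change 0.85, adjusted p = 0.0618). Ift80, a peripheral subunit, measured 6.95 to 7.60 in HCC and 6.29 to 6.82 in control liver (0.78, adjusted p = 0.0559). Ift74, the partner of Ift81, was at 7.59 to 8.44 in HCC and 6.78 to 7.46 in control liver (0.79, adjusted p = 0.0867).

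Ift57 had a larger change than Ift81 but a wider spread. This subunit of the IFT-B periphery was at 9.74, 8.66, 9.03, 7.34 and 8.39 on HCC arrays 1 to 5, against 6.46, 6.91, 6.64 and 7.82 on control arrays 1 to 4. HCC array 4 lay below control array 4, so the groups overlapped (change 1.67, SE 0.46, adjusted p = 0.106). At the other end, Ift172, which forms the turnaround point at the tip, averaged 7.11 ± 0.30 in HCC and 7.07 ± 0.08 in control liver (0.04, 95% interval -0.29 to 0.37). Ift20, which also works at the Golgi, averaged 9.98 ± 0.29 in HCC and 10.20 ± 0.22 in control liver (-0.22, adjusted p = 0.454). The remaining Ift22, Ift27, Ift46 and Ift52 had changes of -0.18 to 0.54 and overlapping groups.

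**Figure D2:**
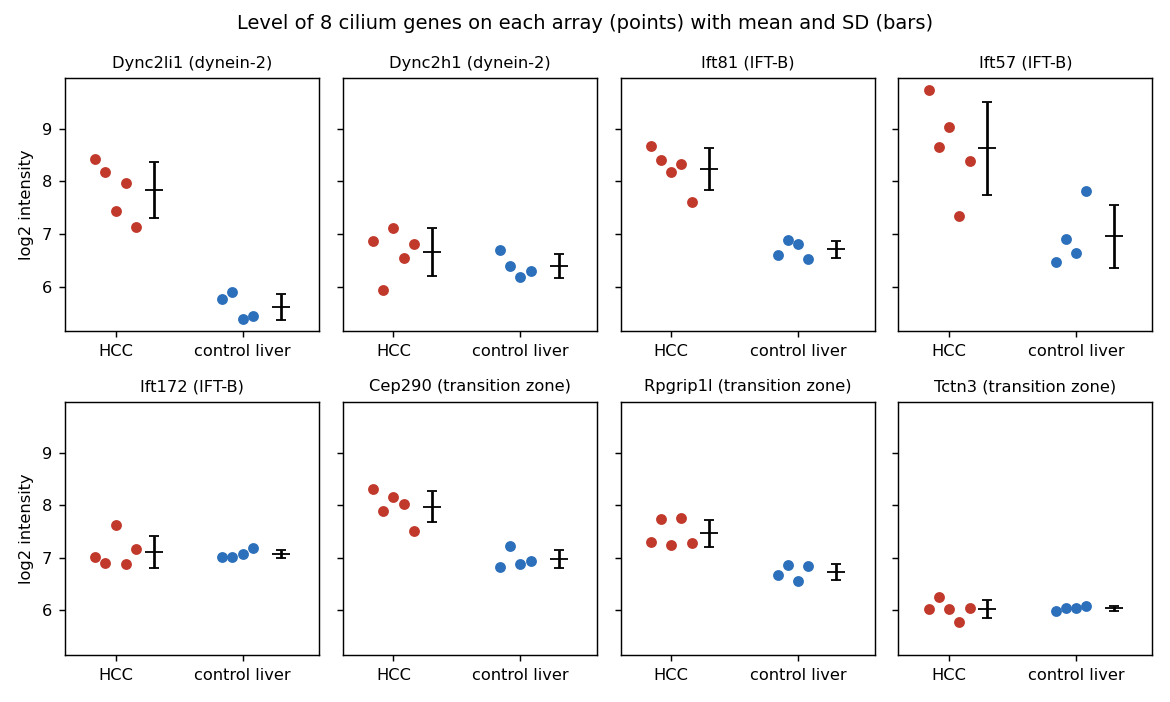
Log2 intensity (vertical axis) of 8 members on each array, with HCC to the left of control liver and arrays in label order within a group. Points are arrays and bars give the mean and SD. Dync2li1, Ift81, Cep290 and Rpgrip1l separate the groups, while Dync2h1, Ift57, Ift172 and Tctn3 overlap.

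None of 5 IFT-A subunits passed, where 0.858% of all genes were called higher, although all 5 changes were positive (median 0.51). For 3 of the 5 (60%), every HCC array lay above every control array, against 5.63% of all genes. At an unadjusted p below 0.05 in limma, 3 of the 5 were higher and none lower, against 10.5% and 9.85% of all genes. Wdr35, the IFT121 subunit, measured 7.60, 6.69, 6.71, 6.86 and 6.63 on HCC arrays 1 to 5, against 5.79, 6.17, 5.89 and 6.15 on control arrays 1 to 4 (change 0.90, SE 0.20, adjusted p = 0.0657). HCC array 1 was the high array, and without it the change was 0.72 and the adjusted p 0.039, while without HCC array 5 they were 0.96 and 0.0367. Ift122, a core subunit, was at 6.36 to 6.74 in HCC and 5.75 to 6.16 in control liver (0.51, adjusted p = 0.0695). Ift43, a small peripheral subunit, was at 8.32 to 9.77 in HCC and 7.81 to 8.17 in control liver (0.77, adjusted p = 0.174).

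The core subunit Ift140 averaged 6.95 ± 0.14 in HCC and 6.93 ± 0.07 in control liver, with a change of 0.02 whose 95% interval ran from -0.17 to 0.21. Wdr19, the IFT144 subunit, had a change of 0.27 (adjusted p = 0.279). Changes among subunits of this complex thus ran from near 0 to 0.90.

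Of 9 measured members of the BBSome group, 8 had a positive change and none passed, where 0.858% of all genes were called higher. At an unadjusted p below 0.05 in limma, 5 were higher and none lower, against 10.5% and 9.85% of all genes. Bbs2, a core subunit, measured 7.69, 7.16, 7.62, 7.60 and 7.27 on HCC arrays 1 to 5, against 6.62, 6.95, 6.23 and 6.87 on control arrays 1 to 4 (change 0.80, SE 0.17, adjusted p = 0.0627). Ttc8, the subunit also called Bbs8, was at 7.35 to 8.51 in HCC and 6.53 to 7.17 in control liver (0.96, adjusted p = 0.104). For these core subunits, 2 of the 9 members (22.2%), every HCC array lay above every control array, against 5.63% of all genes.

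Bbs5, which binds phosphoinositides, was at 6.66 to 7.14 in HCC and 5.82 to 6.66 in control liver, so that the groups touched (0.66, adjusted p = 0.104). Bbs9 averaged 7.53 ± 0.13 in HCC and 7.30 ± 0.14 in control liver (0.23, adjusted p = 0.219). Bbs10, a chaperonin-like protein of BBSome assembly, averaged 6.91 ± 0.37 in HCC and 7.01 ± 0.14 in control liver (-0.10, adjusted p = 0.782). Bbs12, another such protein, varied widely among tumours, from 5.71 on HCC array 5 to 7.53 on HCC array 3, against 5.57 to 6.20 in control liver. The other core subunits Bbs1, Bbs4 and Bbs7 had changes of 0.12 to 0.29 with overlapping groups.

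Arl3, a GTPase that releases lipid-modified cargo inside the cilium, averaged 10.62 ± 0.30 in HCC and 10.41 ± 0.18 in control liver (change 0.21, 95% interval -0.14 to 0.56, adjusted p = 0.473). Its groups overlapped.

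In the transition zone, 2 of 11 members rose (18.2%, against 0.858% of all genes called higher) and none fell. At an unadjusted p below 0.05 in limma, 7 of the 11 were higher and none lower, against 10.5% and 9.85% of all genes. Cep290, a large protein that links the axoneme to the membrane, measured 8.30, 7.89, 8.15, 8.02 and 7.51 on HCC arrays 1 to 5, against 6.83, 7.22, 6.89 and 6.94 on control arrays 1 to 4. The groups did not overlap, and HCC array 5 was again the lowest tumour. The means were 7.98 ± 0.30 in HCC and 6.97 ± 0.17 in control liver (2.00-fold, log2 change 1.00, SE 0.16, adjusted p = 0.0346). Cep290 passed under 10 of 17 alternatives. It was lost without control array 1, 2, 3 or 4 (adjusted p 0.127, 0.0767, 0.128 and 0.0907) and without HCC array 2, 3 or 4 (0.0586, 0.0758 and 0.0827), with changes of 0.96 to 1.09.

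Rpgrip1l, the scaffold on which other transition zone proteins assemble, measured 7.30, 7.73, 7.25, 7.76 and 7.28 on HCC arrays 1 to 5, against 6.68, 6.87, 6.55 and 6.85 on control arrays 1 to 4. Here HCC arrays 2 and 4 were the high tumours, and again no tumour reached down to a control. The means were 7.46 ± 0.26 in HCC and 6.73 ± 0.15 in control liver (1.66-fold, log2 change 0.73, SE 0.14, adjusted p = 0.0493). Rpgrip1l passed under 6 of 17 alternatives, the fewest of the 4 called members. The call ended with repeated quantile normalisation (adjusted p = 0.0634), with array medians subtracted (0.0516), with the Xist covariate (0.0656) and without any 1 array other than HCC array 5 (0.0631 to 0.149), while the change stayed between 0.65 and 0.78.

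The other transition zone members belong mostly to the membrane-associated module named after Meckel syndrome (MKS). B9d1, a lipid-binding B9 domain protein, was at 7.21 to 7.91 in HCC and 6.74 to 6.84 in control liver, without overlap (change 0.68, adjusted p = 0.0556). Cc2d2a, Tmem216, Tctn2 and Tmem67, of the same module, had changes of 0.87, 0.41, 0.34 and 0.30 with adjusted p of 0.109 to 0.224. Of these, Tmem67 alone had groups that did not overlap.

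Their partners Mks1, Tctn1 and Tctn3 lay close to the controls. Tctn3 averaged 6.03 ± 0.17 in HCC and 6.04 ± 0.05 in control liver (-0.01, 95% interval -0.22 to 0.19). Tctn1 was at 6.85 to 7.31 in HCC and 6.66 to 7.02 in control liver (0.15), and its dimmer probe set gave 0.02 (adjusted p = 0.853). Mks1 averaged 5.91 ± 0.14 in HCC and 6.01 ± 0.10 in control liver (-0.10, adjusted p = 0.539). Nphp4, of the separate nephronophthisis module, had a change of -0.12 (adjusted p = 0.351).

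At the basal body none of 3 members passed, where 0.858% of all genes were called higher. At an unadjusted p below 0.05 in limma, 2 were higher and none lower, against 10.5% and 9.85% of all genes. Alms1, the centrosomal protein of Alström syndrome, measured 7.35, 6.56, 6.73, 7.59 and 6.56 on HCC arrays 1 to 5, against 6.50, 6.19, 6.12 and 6.09 on control arrays 1 to 4 (change 0.73, adjusted p = 0.138). Ofd1, which limits the length of centrioles, was at 7.91 to 8.68 in HCC and 7.40 to 7.89 in control liver (0.54, adjusted p = 0.17). Both had every HCC array above every control array (2 of 3, 66.7%, against 5.63% of all genes). However, HCC arrays 2 and 5 for Alms1 and 4 and 5 for Ofd1 lay just above the highest control.

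Cep164, the distal appendage protein that docks the centriole to the membrane, went the other way in sign. It averaged 6.54 ± 0.18 in HCC and 6.72 ± 0.18 in control liver (-0.19, adjusted p = 0.387), and its second probe set gave -0.06 (adjusted p = 0.776).

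The tumours were not alike over the members. HCC array 1 was the highest tumour for 24 of 42 members, while HCC arrays 4 and 5 were the lowest for 15 and 12. The median difference of the 42 members from the control mean was 0.60, 0.29, 0.53, 0.21 and 0.31 on HCC arrays 1 to 5, against -0.11, 0.09, -0.04 and 0.07 on control arrays 1 to 4. All 5 tumours thus lay above all 4 controls in this median. On single tumours, between 23 and 32 of the 42 members (54.8% to 76.2%) lay above every control array, against 19.4% to 28.4% of all genes.

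**Figure D3:**
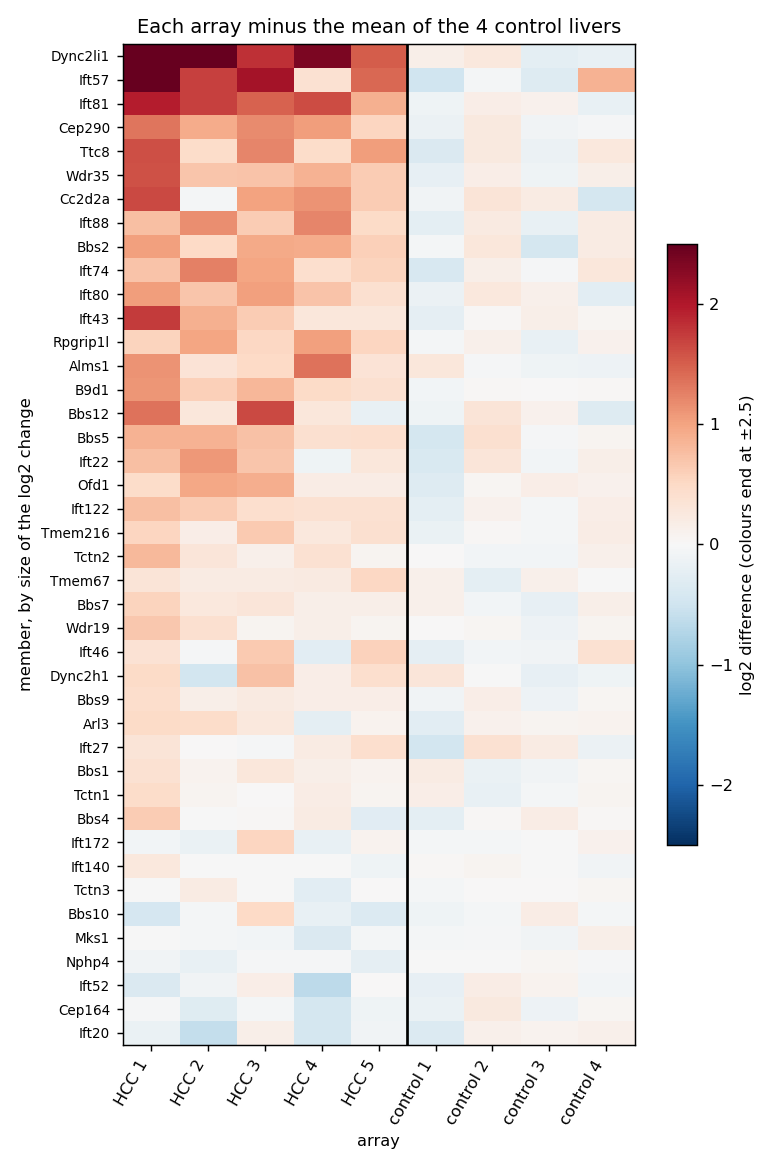
Log2 difference of each array from the mean of the 4 control livers (colour) for the 42 members, in rows ordered by change, with HCC arrays left of the line. Red is higher and blue lower, and HCC array 1 holds the highest tumour value for 24 members.

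Other subunits of the same machines, on a list of 31 genes of which 28 were measured, had a median change of 0.31. Rabl2, a GTPase that binds the IFT-B train at the ciliary base, rose (3.57%, against 0.858% of all genes called higher) and none fell. It measured 6.38, 6.07, 6.19, 6.46 and 6.31 on HCC arrays 1 to 5, against 5.54, 5.87, 5.41 and 5.54 on control arrays 1 to 4 (1.62-fold, adjusted p = 0.0361). Ttc30b, an IFT-B subunit, was at 8.69 to 9.03 in HCC and 7.76 to 8.41 in control liver (change 0.71, adjusted p = 0.0584). At an unadjusted p below 0.05 in limma, 13 of the 28 were higher and 1, Invs, lower, against 10.5% and 9.85% of all genes. For 8 of the 28 (28.6%), every HCC array lay above every control array, against 5.63% of all genes. For 1 of them every HCC array lay below, against 3.86% of all genes.

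The list also holds partners of the members in both motors. The dynein-2 subunits Tctex1d2, Wdr60, Wdr34 and Dynlrb1 had changes of 0.94, 0.63, 0.43 and -0.00, and the kinesin-2 genes Kif3a, Kifap3, Kif3b and Kif17 had changes of 0.87, 0.31, 0.17 and -0.01. None of these 8 passed (adjusted p 0.0652 to 0.979). Inversin (Invs), which marks a segment of the proximal cilium, was lower on all HCC arrays, at 7.03 to 7.67, than on any control array, at 7.75 to 8.11 (-0.53, adjusted p = 0.0975).

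Of 13 measured centriole and ciliogenesis genes none passed, against 0.858% of all genes called higher and 0.16% called lower. No gene of the 13 separated the groups (median change 0.22), against 5.63% of all genes wholly higher and 3.86% wholly lower. A list this short cannot tell 0 from these shares. At an unadjusted p below 0.05 in limma, 5 of the 13 were higher and none lower, against 10.5% and 9.85% of all genes. Pcm1, the scaffold of centriolar satellites, was at 9.48 to 10.38 in HCC and 9.23 to 9.71 in control liver (0.54, adjusted p = 0.156), and the distal appendage gene Cep83 had a change of 0.38 (adjusted p = 0.183). Among 9 measured transcription factors of ciliogenesis and ciliopathy the median change was 0.03 and none passed. At an unadjusted p below 0.05 in limma, where all genes gave 10.5% higher and 9.85% lower, none was lower and 2 were higher. These were Glis3 (7.13 ± 0.36 in HCC and 6.57 ± 0.09 in control liver, adjusted p = 0.133) and Glis2 (7.71 ± 0.44 in HCC and 7.19 ± 0.22 in control liver, adjusted p = 0.23). Rfx3, a factor that switches on ciliary genes, had a change of 0.03 (95% interval -0.19 to 0.24).

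Genes of the motile axoneme served as markers of multiciliated cells, which normal bile ducts and liver parenchyma lack. Of 14 measured, 1 rose (7.14%, against 0.858% of all genes called higher), none fell, and 10 had a negative change (median -0.06). At an unadjusted p below 0.05 in limma, 2 of the 14 were higher and 1 lower, against 10.5% and 9.85% of all genes. The gene that rose was Rsph9, a radial spoke head protein, with 7.03 ± 0.44 in HCC and 5.82 ± 0.15 in control liver (2.31-fold, adjusted p = 0.043). The dynein heavy chain Dnah11 was at 6.40 ± 0.20 in HCC and 6.05 ± 0.17 in control liver (adjusted p = 0.158). Rsph4a, the lower gene, was at 5.35 to 6.59 in HCC (change -1.33, adjusted p = 0.191). On control arrays 1 to 4 it measured 7.89, 8.22, 7.54 and 5.59. Foxj1, the master factor of motile cilia, measured 6.01 ± 0.04 in HCC and 5.94 ± 0.03 in control liver (change 0.07, 95% interval -0.05 to 0.20).

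Markers of other cells and of proliferation were read beside the members. Bile duct markers had a positive change in 6 of 8 measured genes, of which 1 passed (12.5%, against 0.858% of all genes called higher). This was Sox9, a transcription factor of duct cells, with 9.50 ± 0.65 in HCC and 7.35 ± 0.14 in control liver (adjusted p = 0.0228). Epcam, an epithelial adhesion protein, followed with 7.12 ± 0.53 in HCC and 5.93 ± 0.20 in control liver (adjusted p = 0.0604). Of the 8 markers, 3 were higher and none lower at an unadjusted p below 0.05 in limma, against 10.5% and 9.85% of all genes. For 3 of the 8 (37.5%), every HCC array lay above every control array, against 5.63% of all genes. The mean log2 level of the 8 markers was 7.12 to 8.38 in HCC and 6.62 to 6.69 in control liver. The duct keratins Krt19 and Krt7 did not pass (adjusted p 0.281 and 0.394), and Sctr and Aqp1 had changes of -0.15 and -0.17. Pkhd1 had a change of 0.90 (adjusted p = 0.174) and Cftr one of 2.02 (adjusted p = 0.284). Cftr was at 10.85 on HCC array 1 and 5.57 to 6.82 on the other tumours, against 4.67 to 5.29 in control liver. The part of bile duct cells in the members' changes was not tested.

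Proliferation genes had a positive change in 7 of 7 measured. The replication genes Mcm6 and Top2a rose (28.6%, against 0.858% of all genes called higher). Mcm6 was at 9.32 ± 0.44 in HCC and 6.66 ± 0.56 in control liver (adjusted p = 0.0102), and Top2a at 8.70 ± 1.07 in HCC and 5.91 ± 0.10 in control liver (adjusted p = 0.0409). A dimmer probe set of Top2a, at 4.54 in HCC and 4.44 in control liver, gave a change of 0.10 (adjusted p = 0.826 in limma). All 7 proliferation genes were higher at an unadjusted p below 0.05 in limma, against 10.5% of all genes. For all 7 (100%), every HCC array lay above every control array, against 5.63% of all genes. Their mean log2 level was 7.95 to 9.66 in HCC and 6.65 to 7.04 in control liver. Genes of cilium disassembly, which are kinases, kinesins and the deacetylase Hdac6, had a median change of 0.56 over 6 genes, none of which passed. At an unadjusted p below 0.05 in limma, 3 were higher and none lower, against 10.5% and 9.85% of all genes. The mitotic kinase Nek2 measured 7.14 ± 0.43 in HCC and 6.29 ± 0.09 in control liver (adjusted p = 0.0781), and the microtubule-depolymerising kinesin Kif2a 9.97 ± 0.32 in HCC and 9.40 ± 0.06 in control liver (adjusted p = 0.106). HCC array 1 had the highest median difference from the control mean on the bile duct, proliferation and cilium lists alike. HCC array 4 had the lowest tumour value for the cilium members, 0.21, and for bile duct markers, 0.25, but 2.41 for proliferation genes. On HCC array 3 this difference was 0.53 for the cilium members, 0.46 for bile duct markers and 0.99 for proliferation genes. The members' own groups also differed on that array, with 0.65 for IFT-B and 0.21 for the transition zone. The part of proliferating cells in the members' changes was not tested.

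No gene was called on the other marker lists, where all genes gave 0.858% higher and 0.16% lower. All 9 hepatocyte markers had a negative change (median -0.27), with Cps1 (adjusted p = 0.106) and Tat (0.111) lowest in p. Their median difference from the control mean was -0.71 on HCC array 1 and 0.03 on HCC array 5. Macrophage markers had a median change of -0.45 over 7 genes (1 positive, 6 negative), with Marco (-0.45, adjusted p = 0.136) and Clec4f (-1.10, 0.308) lowest in p. Endothelial markers gave -0.27 over 6 (3 positive, 3 negative), the lowest in p being Kdr (-0.64, adjusted p = 0.113) and Clec4g (-1.58, 0.223). A dimmer probe set of Clec4g gave -0.22 (adjusted p = 0.204 in limma). Stellate cell and fibroblast markers gave 0.09 over 7 (4 positive, 3 negative), with Lrat (-1.19, adjusted p = 0.21) and Col3a1 (0.19, 0.229), and lymphocyte markers gave -0.06 over 6 (3 positive, 3 negative), with Cd8a (-0.14, 0.394) and Cd79a (-0.14, 0.542). At an unadjusted p below 0.05 in limma, 0, 0, 0, 1 and 0 genes of these 5 lists were higher and 4, 1, 2, 1 and 0 lower. All genes gave 10.5% higher and 9.85% lower. Every HCC array lay below every control array for 2 of 9 hepatocyte markers (Cps1 and Tat) and 2 of 6 endothelial markers (Kdr and Clec4g). This held for no gene of the other lists in this paragraph, against 3.86% of all genes.

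**Figure D4:**
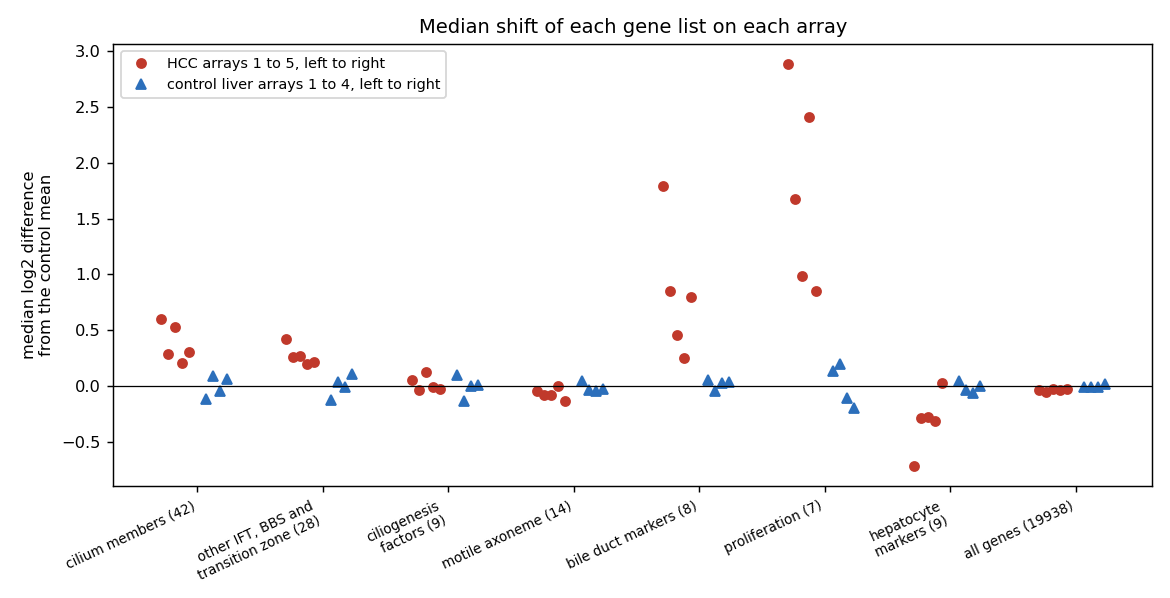
Median log2 difference from the control mean (vertical axis) of each gene list on each array, with HCC (circles) left of control liver (triangles). The cilium members lie between 0.21 and 0.60 in HCC, the proliferation genes between 0.85 and 2.88, and the motile axoneme genes between -0.13 and 0.00.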

How the data were processed

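The authors' deposited table holds linear intensities, 1 for each probe set and array, made with RMA per the submitters' processing notes, and the series text names GenePattern and R. Those sources give no versions. Values ran from 3.91 to 21468 and were taken to log2 with no pseudocount. Of 35512 probe sets, 21789 carried 1 gene symbol in the platform annotation, 1621 several and 12102 none, and 21698 of the first matched a RefSeq gene table by Entrez identifier. The brightest single-symbol probe set stood for each gene. No detection calls were used, so a low level does not say that a transcript was absent, and the number of arrays limits the precision.

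All 19938 genes were fitted with limma 3.58.1 (lmFit, eBayes; R 4.3.3), two-sided, with Benjamini-Hochberg adjustment over all genes; group was the only term. The fit was tested on simulated data. Tables and plots used Python 3.11.15, pandas 2.3.3, numpy 2.4.6 and matplotlib 3.10.9. Members, lists and alternatives were chosen with earlier results of these data known. Genes named by rule were the called members, the 3 smallest p and the largest p in each group of members, members with several probe sets or with 1 array set apart in a group, and the called genes and 2 smallest p of each other list; further genes were named with their values known. Promoters shown beyond the called members were chosen after their matches were seen. Alternatives were a filter on dim genes, repeated quantile normalisation, median subtraction, trended robust eBayes, array weights, the mean or each of a gene's probe sets, the replicate number as a block, the Xist level as a covariate and omission of each array.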

Additional observations from a re-analysis of the deposited data

Results flagged for a closer look

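In all, 8 values stood apart from the rest of their group by Dixon's criterion, among 132 groups of arrays tested (6 of them among the 84 groups of the members). Chance alone flags about 1 group in 20.

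On control array 1, Ift20 was at 9.87 against 10.29 to 10.33 on the other controls, and Arl3 was at 10.14 against 10.48 to 10.51. On HCC array 1, Wdr35 was at 7.60 against 6.63 to 6.86 on the other tumours, Ift140 at 7.19 against 6.82 to 6.92, and Bbs9 at 7.75 against 7.44 to 7.52. Mks1 was at 5.66 on HCC array 4, against 5.94 to 6.00 on the other tumours. Among genes of the other lists, control array 4 was low for Tat (13.25 against 13.42 to 13.43) and for Top2a (5.76 against 5.96 to 5.97).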

How the results depend on the processing

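The median change of the members stayed positive under all alternatives run (0.33 to 0.54), and no member was called lower in limma under any of them. The count called higher was 4, against 8 with the filter on dim genes (29 members tested), 14 with array weights and 0 to 10 when single arrays were left out. Over all genes the calls were 171 higher and 32 lower, against 285 and 93 with that filter, 503 and 246 with array weights and 631 and 556 without HCC array 5. Members lying wholly below the controls numbered 0 to 1 when single arrays were left out, and those wholly above 16 to 21. Omitting an array can only keep or add such members, so these counts could not fall below the 0 and 16 with all arrays. The ranges therefore do not test whether the separation is stable, and shares of all genes under the same omissions are not given.

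With the replicate number as a replicate block, 5 members were called higher, with Ift88 added. Over all genes the block gave 259 and 220 calls. Deviations of same-numbered arrays from their group means correlated at -0.004, 0.324, -0.029 and -0.083, so the numbers were not taken as pairs.

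Genes near no change crossed 0. Ift172 was at -0.0015 after repeated quantile normalisation, at -0.036 with the Xist covariate and between -0.087 and 0.096 without single arrays. Ift140 was at -0.00016 after quantile normalisation and between -0.037 and 0.056 without single arrays. Tctn3 was at 0.014 with the Xist covariate and between -0.069 and 0.047 without single arrays. The cause of these shifts was not tested.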
